A study of Mus musculus with 6 samples.

Results

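The transcripts of polyamine metabolism were followed in the tibialis anterior (TA) muscle, a mostly fast-twitch muscle of the lower leg, of old male C57BL/6J mice. The 10 genes are Odc1, Azin1, Oaz1, Oaz2, Amd1, Srm, Sms, Smox, Paox and Sat1. They were found by gene symbol in the TPM tables and joined by gene identifier to the count table of 45777 genes, and all 10 passed the filter on low counts. They were selected on earlier results of these mice, namely the fold change between the groups and the spread between libraries, so their differences between the groups are given as a description, without a test. The mice were 24 months old per the labels (24 to 26 months in the study's methods, and 27 months in its text on this experiment). The 3 control mice received vehicle (DMSO with Tween 80), and the 3 treated mice received 5 mg/kg BML-260, a small molecule that the study used against the phosphatase DUSP22, by intraperitoneal injection every 24 h for 4 weeks. The labels name no transgene or deletion, young mice were not among the libraries, and each library was made from total RNA of the muscle, all cell types included. The comparison asks how the transcriptome of the aged muscle differed with BML-260. By RefSeq (GRCm38.p6), the members this account turns on are Smox (gene 228608, chr2:131491858-131525183), Amd1 (11702, chr10:40287458-40302188), Odc1 (18263, chr12:17544808-17551502), Sat1 (20229, chrX:155213126-155216449) and Paox (212503, chr7:140115735-140134334), all protein-coding.

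Polyamines (putrescine, spermidine and spermine) are small positively charged molecules that bind nucleic acids and are needed for growth and translation. Ornithine decarboxylase makes putrescine, decarboxylated S-adenosylmethionine donates the aminopropyl groups that turn it into spermidine and then spermine, and oxidases and an acetyltransferase run the path backwards. The pool is held steady by antizymes, which bind ornithine decarboxylase and deliver it to the proteasome. In skeletal muscle, spermine oxidase is known as a gene whose transcript falls in several forms of atrophy and whose loss makes fibers smaller.

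The members did not share 1 pattern. Smox (spermine oxidase) and Amd1 (S-adenosylmethionine decarboxylase) spanned more than a factor of 10 among the 3 vehicle mice, and 4.57-fold and 4.75-fold without vehicle replicate 3, and their profiles over the 6 libraries were much alike. Odc1 and Sat1, and less so Paox, had their highest level in vehicle replicate 3, the library in which Smox and Amd1 were lowest. Azin1, Oaz1 and Oaz2, the regulators of ornithine decarboxylase, kept close to 1 level in all 6 libraries. In the wider pathway, the level of the polyamine transporter Atp13a3 was lower in every BML-260 mouse than in every vehicle mouse, by 1.34 on the log2 scale, a difference that passed the adjusted threshold in DESeq2 and not in edgeR.

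The promoters of the 4 members with the widest range between libraries are shown, since these are the genes on which the description turns. Each run is the 250 bases before the annotated transcript start, read 5′ to 3′ on the strand of the gene, from RefSeq (GRCm38.p6), and capitals mark the GC box, GGGCGG or its reverse complement CCGCCC, the letters that Sp-family factors bind. The positions are chr2:131491612-131491861 on the plus strand (Smox), chr10:40302189-40302438 on the minus strand (Amd1), chr12:17544623-17544872 on the plus strand (Odc1) and chrX:155216450-155216699 on the minus strand (Sat1). The Smox and Odc1 windows end past the gene starts given above, so their last bases lie within the annotated gene.
Smox: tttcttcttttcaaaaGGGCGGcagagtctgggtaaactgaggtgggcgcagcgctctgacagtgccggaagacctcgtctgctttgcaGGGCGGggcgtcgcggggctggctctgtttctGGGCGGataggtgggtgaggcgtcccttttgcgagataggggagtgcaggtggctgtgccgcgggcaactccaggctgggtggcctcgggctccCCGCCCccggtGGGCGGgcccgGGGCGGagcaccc
Amd1: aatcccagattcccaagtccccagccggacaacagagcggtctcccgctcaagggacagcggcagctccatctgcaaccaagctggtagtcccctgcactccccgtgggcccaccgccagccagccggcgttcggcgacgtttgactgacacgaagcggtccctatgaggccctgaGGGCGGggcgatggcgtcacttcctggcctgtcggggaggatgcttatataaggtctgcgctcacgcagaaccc
Odc1: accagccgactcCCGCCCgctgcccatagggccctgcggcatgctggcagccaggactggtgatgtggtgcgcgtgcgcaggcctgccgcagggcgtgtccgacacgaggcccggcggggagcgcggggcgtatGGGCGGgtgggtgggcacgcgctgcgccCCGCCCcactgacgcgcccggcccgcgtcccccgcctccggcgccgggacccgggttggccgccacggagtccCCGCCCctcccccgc
Sat1: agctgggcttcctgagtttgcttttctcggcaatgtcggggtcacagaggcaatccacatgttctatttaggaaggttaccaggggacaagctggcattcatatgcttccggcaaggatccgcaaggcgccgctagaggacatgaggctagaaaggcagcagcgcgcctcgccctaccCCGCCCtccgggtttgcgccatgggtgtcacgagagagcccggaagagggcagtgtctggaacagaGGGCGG

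The Smox window holds 6 GC boxes, a number reached by 0.886% of 32851 RefSeq promoters of this length. Amd1 has 1, Odc1 has 4 and Sat1 has 2. The letters G and C make up 68.0% of the Smox window, 64.4% of Amd1, 80.0% of Odc1 and 59.6% of Sat1. The shares of all promoters given here were not matched for this content. A GC box stands in 8 of the 10 promoters of the 8 members that have one in the table (all but Srm and Azin1), and in 32.7% of all promoters. The forkhead core TGTTTAC, the androgen and glucocorticoid receptor palindrome, the cAMP response element TGACGTCA and the TATA box TATAAA are spelled out in none of these 10 promoters, on either strand, against 3.17%, 0.009%, 1.55% and 12.4% of all promoters. The E-box CACGTG is in 1 of them (a promoter of Sms, 6.02% of all) and CCAAT in 2 (Oaz1 and the same Sms promoter, 33.9% of all). Overlapping matches were counted one by one, and the motifs were chosen after the values were seen. A match is letters only, and so is its absence.

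The 6 libraries held 39522890 to 56998875 counts. Vehicle replicate 3 stood apart from the other 5. The 8 fast fiber markers, which include Myh4 and Ckm, summed to 70580 CPM (counts scaled to library size and RNA composition by TMM) there. The other 5 libraries held 109900 to 134400 CPM. Not every marker was lowest there, since Myh1 was at 11250 CPM, above vehicle replicate 1 (9466 CPM) and BML-260 replicate 1 (10640 CPM). On TPM, Myh4, Ckm and Pvalb were lowest in this library, Tnnt3 and Tnni2 were highest, and Myh1, Acta1 and Actn3 lay between. All 5 slow fiber markers and all 7 macrophage markers were highest in it, at sums of 233 and 336 CPM, against up to 40.2 and 118 CPM elsewhere. All 5 neutrophil markers were also highest in it, and Ly6g was at 0 in the other 5 libraries. Their sum was 173 CPM there, 49.5 CPM in vehicle replicate 1, 7.51 CPM in vehicle replicate 2 and 2.22 to 3.64 CPM with BML-260. The sum of the 11 genes of denervation and atrophy was 2700 CPM in this library, 957 and 969 CPM in the other 2 vehicle libraries, and 670 to 700 CPM with BML-260. Most of the 2700 CPM came from Fbxo32 (1480 CPM) and Trim63 (887 CPM). Of the 11 genes, 6 were highest in this library, while Chrna1, Chrng, Chrnd, Runx1 and Ncam1 were highest in vehicle replicate 2. The sums of the adipocyte, erythroid and Schwann markers were also highest in it, at 16.7, 2344 and 62.7 CPM against up to 3.48, 839 and 24.5 CPM elsewhere. The fold changes and spreads that move most with this library are therefore also given without it. In bulk muscle, fewer cells of a type and less RNA per cell cannot be told apart. All 5 lymphocyte markers together stayed under 1.08 CPM.

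Smox turns spermine back into spermidine and releases hydrogen peroxide. Smox stood at 186, 40.8 and 14.4 CPM in vehicle replicates 1, 2 and 3 and at 158, 69.7 and 66.5 CPM in BML-260 replicates 1, 2 and 3. The highest and the lowest value were both from vehicle mice, and all 3 treated mice lay between them. The means were 80.5 ± 92.5 CPM with vehicle and 98.1 ± 52.0 CPM with BML-260 (SD, n = 3 each). The log2 fold change from the edgeR fit was 0.29 with a standard error (SE) of 0.78, and the difference of the mean log2 levels was 0.91. Leaving out vehicle replicate 1 gave a log2 fold change of 1.84, and leaving out BML-260 replicate 1 gave -0.24, vehicle replicate 2 -0.03 and vehicle replicate 3 -0.21. No direction is therefore given for Smox.

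The spread of Smox within the vehicle group was 12.9-fold from the lowest to the highest mouse, and 2.38-fold among the treated mice. Without vehicle replicate 3, the other two vehicle mice lay 4.57-fold apart. By the standard deviation of log2 CPM, Smox ranked 217 of the 16188 tested genes in the vehicle group (207 without vehicle replicate 3) and 1029 of 16188 in the BML-260 group. These ranks are a description only, since the members were selected with the spread between libraries in view. Smox shares no stretch of 50 bases with another gene model in the GENCODE annotation, so its counts do not depend on how reads of copies were shared out. Its lowest library held 904 counts, and counting error is small beside these ranges.

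Amd1 makes the decarboxylated S-adenosylmethionine that both aminopropyl transfers need. It was at 745, 157 and 53.0 CPM in vehicle replicates 1 to 3 and at 788, 558 and 332 CPM in BML-260 replicates 1 to 3. Vehicle replicate 1 was close to the highest treated library, and the other two vehicle libraries lay below all treated ones. The group means were 318 ± 373 and 559 ± 228 CPM (SD, n = 3 each), and the log2 fold change was 0.81 with a standard error of 0.80. It stayed above 0 with each library left out, from 0.31 without vehicle replicate 3 to 2.42 without vehicle replicate 1. The vehicle mice spanned 14.1-fold (4.75-fold without vehicle replicate 3) and the treated mice 2.38-fold.

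The counts of Amd1 are uncertain in 1 respect. Of its distinct 50-base stretches, 78.1% occur in another gene model, most of them (76.7%) in Amd2, a copy of the gene on the same chromosome. Amd2 held 16.6% to 19.9% as many counts as Amd1 in each library. With that near-constant share, the Amd2 profile repeats that of Amd1 (140.4, 31.1 and 8.82 CPM with vehicle, 151, 105 and 65.9 CPM with BML-260). Reads from the shared stretches cannot be assigned to 1 copy here.

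**Figure D1:**
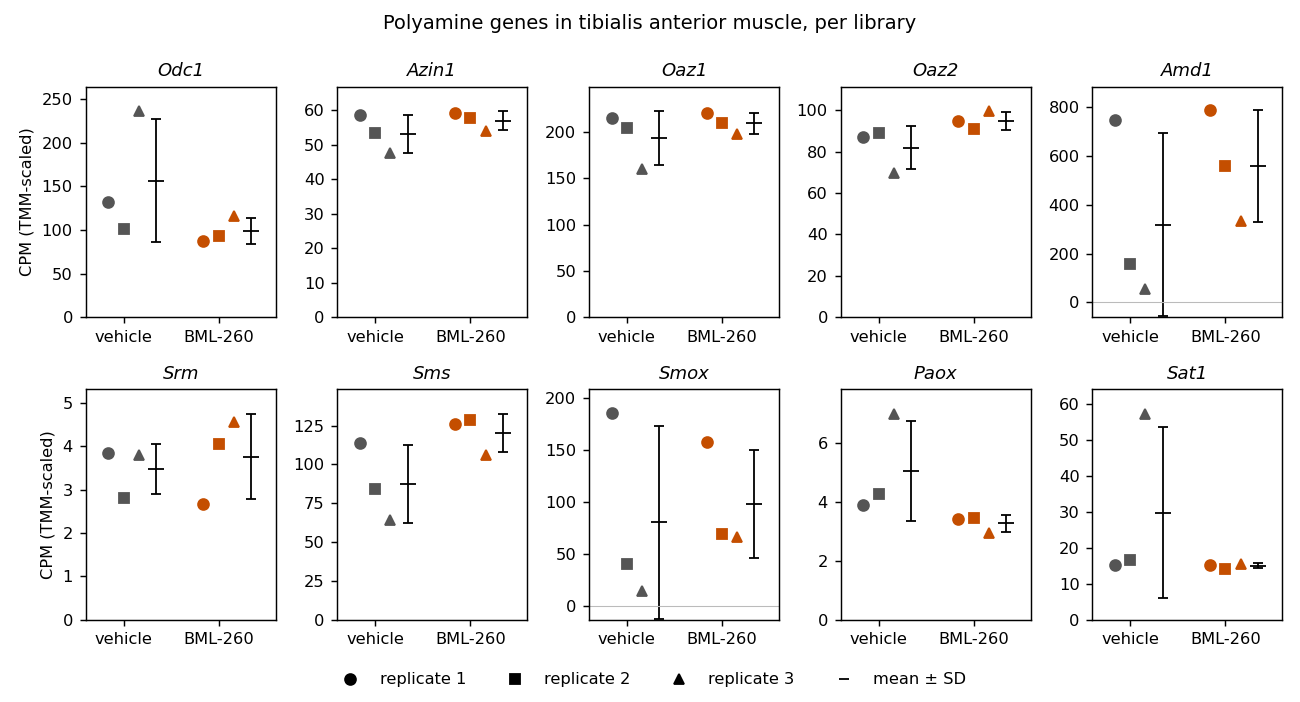
CPM of the 10 polyamine genes in each library, on a linear axis of its own for each gene. Grey symbols are the 3 vehicle mice, orange symbols the 3 BML-260 mice, the symbol shape is the replicate number, and the bars are the mean ± SD. The vehicle mice spread over 12.9-fold for Smox and 14.1-fold for Amd1 (4.57-fold and 4.75-fold without vehicle replicate 3), and the single high point of Sat1 (57.1 CPM) and of Odc1 (236 CPM) is vehicle replicate 3.

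Likeness to Smox was measured as the root mean square difference between gene-centred log2 CPM profiles over the 6 libraries, where 0 would be the same profile. The difference was 0.38 for Amd1, which ranked 8 of 16187 genes, and 0.94 for Sms, against a median of 1.26 over all genes and 1.23 for a gene that did not vary. Amd1 ranked between 2 and 47 when each library was left out in turn or TPM was used. Odc1 (1.59), Paox (1.55) and Sat1 (1.85) differed from Smox by more than the median gene. Without vehicle replicate 3 the difference was 0.38 for Amd1, 0.70 for Sms, 0.80 for Odc1, 0.86 for Paox and 0.85 for Sat1, against a median of 0.85, so that the distance of the last 3 rests on that library. The 5 nearest genes with a curated name were Dnah3 (an axonemal dynein), Nodal (a signaling ligand), the pseudogene Amd-ps3, Rmi2 (a subunit of a DNA repair complex) and the pseudogene Amd-ps7, at 0.27 to 0.35. Dnah3, Nodal and Rmi2 did not exceed 1.61 CPM in any library, and Amd-ps3 holds 25.6% of the 50-base stretches of Amd1. None of the 5 was among the nearest 5 without vehicle replicate 3, and 1 was with log2(TPM + 1). These likenesses are a description over 6 libraries that share their scaling. The rank of Amd1 is no support for a link to Smox, since the members were selected with the spread between libraries in view.

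**Figure D2:**
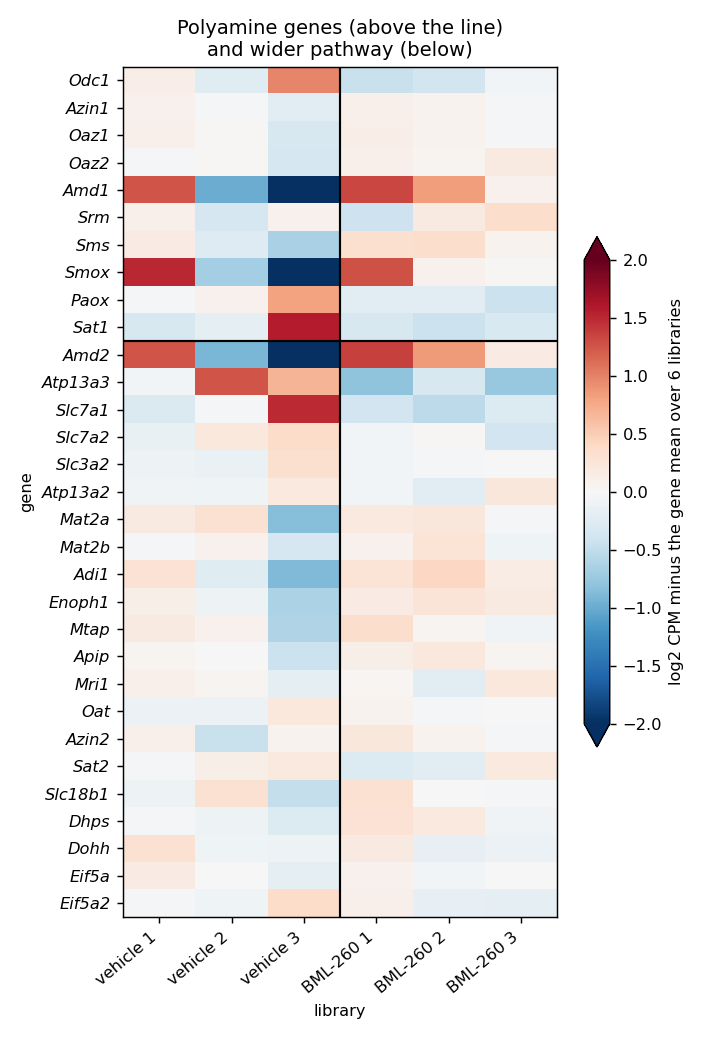
Gene-centred log2 CPM of the 10 members (above the line) and of the 21 tested genes of the wider pathway (below it) in the 6 libraries, red above and blue below the mean of a gene, with the color scale ending at 2 in either direction. Smox, Amd1 and Amd2 share 1 pattern, lowest in vehicle replicate 3, while Sat1, Odc1 and Slc7a1 are highest in that library.

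Odc1 codes for ornithine decarboxylase, the first and rate-limiting enzyme of the path. It was at 132, 101 and 236 CPM in vehicle replicates 1 to 3 and at 87.8, 92.9 and 116 CPM in BML-260 replicates 1 to 3. The ranges of the groups overlapped, and vehicle replicate 3 was above all other libraries. The means were 156 ± 70.6 and 98.9 ± 15 CPM (SD, n = 3 each) and the log2 fold change was -0.66 with a standard error of 0.30. Without vehicle replicate 3 it was -0.23. Of the 50-base stretches of Odc1, 24.3% occur in other gene models, mainly pseudogenes, and the one that shares most (Gm7993, 11.7%) held 92 to 383 counts a library against 3677 to 14788 for Odc1.

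The 3 regulators of ornithine decarboxylase varied little. Azin1, an antizyme inhibitor that releases the enzyme, lay between 47.5 and 59.1 CPM over all 6 libraries, and its log2 fold change was 0.10 (SE 0.14). Oaz1, the main antizyme, lay between 160.3 and 220.1 CPM, with 0.12 (0.17). Oaz2, another antizyme, was at 86.9, 89.1 and 69.8 CPM with vehicle and at 94.6, 90.9 and 99.4 CPM with BML-260. Its groups did not overlap, but the nearest pair of mice lay at 89.1 and 90.9 CPM, and the log2 fold change was 0.21 (0.15), or 0.11 without vehicle replicate 3. On CPM all of these genes were lowest in vehicle replicate 3, but on TPM Azin1 and Oaz1 were highest in it and Oaz2 ranked 2. On log2(TPM + 1), where the median of all genes shifts by -0.10, Azin1, Oaz1 and Oaz2 came to -0.02, -0.03 and 0.07, and the groups of Oaz2 overlapped on TPM. Antizyme is made by a ribosomal frameshift that polyamines promote, which transcript levels do not show.

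Srm (spermidine synthase) and Sms (spermine synthase) add the aminopropyl groups. Srm was low, at 2.67 to 4.57 CPM over the 6 libraries, and its log2 fold change of 0.11 (SE 0.26) fell to -0.05 without BML-260 replicate 3 and on log2(TPM + 1), and to -0.02 without vehicle replicate 2. Sms was at 114, 84.2 and 64.3 CPM with vehicle and at 126, 129 and 106 CPM with BML-260. The groups overlapped only through vehicle replicate 1. The means were 87.4 ± 24.8 and 120.1 ± 12.3 CPM (SD, n = 3 each), and the log2 fold change was 0.46 (0.22), or 0.28 without vehicle replicate 3. Of the 50-base stretches of Sms, 17.4% occur in its pseudogene Sms-ps.

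Sat1 and Paox form the other way back down, in which the acetyltransferase Sat1 marks spermidine and spermine and the peroxisomal oxidase Paox cleaves the acetylated forms. Sat1 was at 15.3, 16.7 and 57.1 CPM with vehicle and at 15.3, 14.2 and 15.5 CPM with BML-260. Outside vehicle replicate 3, the other 5 libraries lay between 14.2 and 16.7 CPM. The log2 fold change of -0.99 (standard error 0.46) accordingly became -0.09 without that library. Paox was at 3.90, 4.26 and 7.0 CPM with vehicle and at 3.43, 3.46 and 2.96 CPM with BML-260. It was lower in every treated mouse than in every vehicle mouse, by a log2 fold change of -0.63 (0.26), or -0.31 without vehicle replicate 3. Paox met the call rule for fold and unadjusted p in 8 of 15 alternatives. Paox shares 28.5% of its 50-base stretches with other models, 25.2% with Gm19680, which held 10 to 65 counts a library against 112 to 439 for Paox.

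The members were set beside all genes tested. The call rule asked for a change of 1.3-fold or more in either direction and for an unadjusted p under 0.05 in the edgeR fit, and 5.75% of the 16188 tested genes met it (0.896% higher and 4.86% lower with BML-260, or 145 and 786 genes). Of the genes that met it, 835 of 2223 were higher without vehicle replicate 1 and 326 of 1057 with the replicate block. Of the members, 1 of 10 met it, Paox, and 0 had an adjusted p under 0.05 in edgeR or in DESeq2. Over all genes, edgeR called 0 (0%) at an adjusted p under 0.05, with 966 (5.97%) at an unadjusted p under 0.05, and DESeq2 called 95 (0.587%). The groups did not overlap for 2 members, Oaz2 (higher) and Paox (lower), against 12.1% of all genes (5.23% higher and 6.91% lower). The log2 fold change was above 0 for 7 members and below 0 for 3, with a median of 0.11, beside a median of -0.0039 over all genes. Nothing is read from these counts, since the members were picked with this contrast in view. Paox, with an unadjusted p just inside the threshold of 0.05, and Odc1, just outside it, had nearly the same log2 fold change (-0.63 and -0.66).

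**Figure D3:**
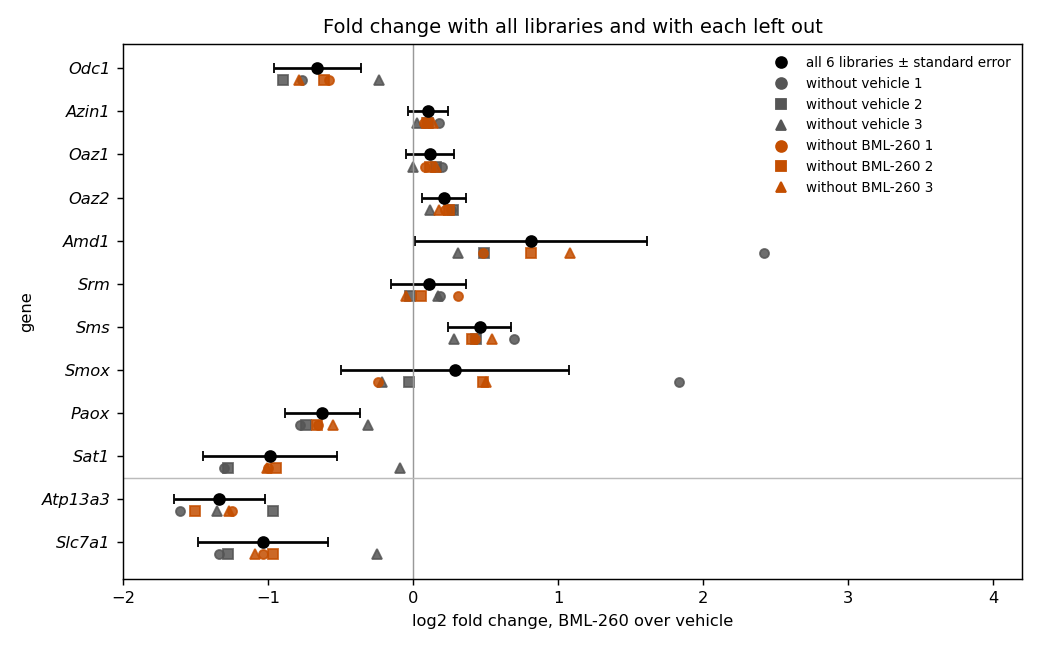
Log2 fold change of BML-260 over vehicle for the 10 members and, below the line, for Atp13a3 and Slc7a1. Black points are the fit to all 6 libraries with the standard error as a bar, and the small symbols under each are the fits with 1 library left out. Smox lies on either side of 0 (-0.24 to 1.84), Sat1 and Slc7a1 come close to 0 without vehicle replicate 3, and Atp13a3 stays between -1.61 and -0.97.

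The levels of the members were compared on the TPM scale, which corrects for transcript length. By geometric mean over the 6 libraries the order was Oaz1 (319 TPM), Amd1 (166), Oaz2 (81.6), Odc1 (80.3), Smox (50.8), Sms (46.5), Sat1 (21.5), Azin1 (20.2), Srm (4.57) and Paox (3.80). Of the 9 pairs of neighbours in this order, only Azin1 and Srm stood in the same order in 6 of 6 libraries, with a 4.42-fold difference (exact paired permutation test, two-sided, p = 0.03125, the smallest that 6 libraries can give, 0.281 after Benjamini-Hochberg adjustment over 9 pairs). The other 8 pairs were not shown to differ beyond their spread, and no pair passed the adjusted threshold. Smox held rank 3 to 8 of the 10 depending on the library and Amd1 rank 1 to 6, while Azin1 held rank 7 in each. Sat1 was above Azin1 in only 1 of 6 libraries, vehicle replicate 3, where it held rank 4 (82.7 TPM). In every other library Sat1 held rank 8, so its place above Azin1 in the order rests on vehicle replicate 3. Smox was 136.8, 27.8 and 15.7 TPM with vehicle and 106, 53.2 and 50.7 TPM with BML-260.

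**Figure D4:**
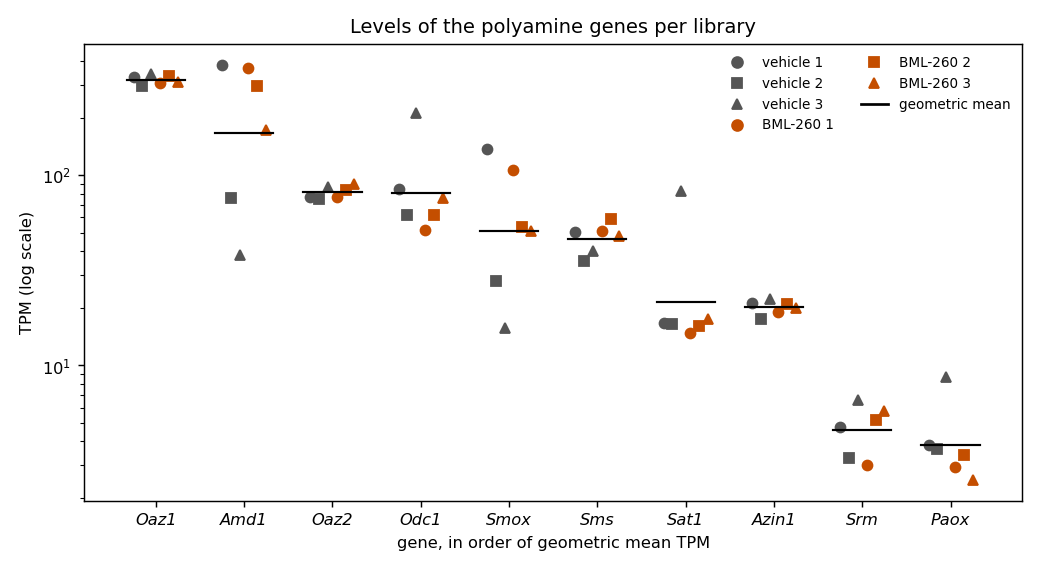
TPM of the 10 members per library on a log axis, in order of the geometric mean (black line). Grey symbols are vehicle and orange symbols BML-260. Oaz1 and Azin1 form tight groups of points, whereas Amd1 and Smox reach from 38.0 to 381 TPM and from 15.7 to 136.8 TPM.

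Ratios between members within a library do not depend on the scaling of the libraries. The ratio of Smox to Paox, the oxidases of free spermine and of acetylated polyamines, was 36.0, 7.61 and 1.80 with vehicle and 36.3, 15.8 and 20.3 with BML-260. The lowest ratio was that of vehicle replicate 3, and replicate 1 of each group had nearly the same value. Odc1 to Oaz1, the enzyme to its antizyme, was 0.258, 0.208 and 0.618 with vehicle and 0.167, 0.186 and 0.247 with BML-260. Here vehicle replicate 3 was the highest. Vehicle replicate 1 (0.258) was also above every treated value, and only vehicle replicate 2 (0.208) lay among them. Oaz1 to Oaz2 stayed between 3.42 and 4.24 in all libraries. None of the 7 ratios computed separated the groups.

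The wider pathway was a list of 29 further genes of polyamine supply, transport, acetylation, methionine salvage and eIF5A hypusination, of which 21 were tested. Oaz3, Satl1, Aoc1 and Mat1a were at 0 in every library, and Arg1, Arg2, Agmat and Slc12a8 were too low to test. Neither arginase, the enzymes that make ornithine from arginine, exceeded 0.367 CPM in any library, and Oat, the ornithine aminotransferase, was at 179 to 223 CPM. Of the 21 tested, 2 met the call rule (background 5.75%), both lower with BML-260 (background 4.86%), and the median log2 fold change was 0.03. Amd2 (0.84, standard error 0.81) and Adi1, a methionine salvage dioxygenase (0.49, standard error 0.27), had the largest values and did not pass. Without vehicle replicate 3 they came to 0.32 and 0.24, and both met the rule without vehicle replicate 1 (2.44 and 0.82) and with the replicate number as a block (1.59 and 0.56). The groups did not overlap for 2 of the 21 (background 12.1%), Atp13a3 (lower) and the salvage enzyme Enoph1 (higher), whose log2 fold change was 0.38 (SE 0.21). That of Enoph1 was 0.19 without vehicle replicate 3, and its groups overlapped on TPM.

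Atp13a3, a P-type ATPase that transports polyamines across endosomal membranes, was at 84.2, 210.0 and 139.7 CPM in vehicle replicates 1 to 3 and at 50.1, 69.8 and 51.9 CPM in BML-260 replicates 1 to 3. Each treated mouse was below each vehicle mouse. The means were 145 ± 63.0 and 57.3 ± 10.9 CPM (SD, n = 3 each) and the log2 fold change was -1.34 with a standard error of 0.31. The adjusted p over all genes was 0.598 in edgeR and 0.00796 in DESeq2, and it ranged from 0.00796 to 0.984 over the 15 alternatives, so the call depends on the tool. The fold and unadjusted p rule was met in all 15 alternatives, and without vehicle replicate 3 the log2 fold change was -1.35. Atp13a2, its relative in lysosomes, was at 16.8 to 23.1 CPM over the 6 libraries and its log2 fold change was -0.02 (SE 0.16).

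Slc7a1, a carrier of arginine and ornithine, was at 2.61, 3.14 and 9.01 CPM with vehicle and at 2.43, 2.20 and 2.61 CPM with BML-260. The groups touched at vehicle replicate 1 and BML-260 replicate 3, and vehicle replicate 3 was high. The log2 fold change was -1.03 with a standard error of 0.45 (edgeR adjusted p = 0.788), or -0.25 without that library. The rule was not met in 8 of 15 alternatives, which were the robust fit, limma on either TPM scale, the replicate block, and the fits without vehicle replicate 3 or any 1 of the BML-260 libraries.

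For 8 of the 11 genes of denervation and atrophy, the highest 2 libraries were vehicle replicates 2 and 3, the 2 vehicle libraries with the lowest Smox. The exceptions were Chrng, Fbxo32 and Trim63. How many of all tested genes have this pair highest was not counted, and all 11 were lower with BML-260, so nothing is read from this count. In BML-260 replicates 1 to 3 the 11 genes summed to 670, 700 and 686 CPM, where Smox was at 158, 69.7 and 66.5 CPM. Gadd45a, a stress gene induced in denervated and aged muscle, was at 41.3, 106 and 109 CPM in vehicle replicates 1 to 3 and at 16.5, 24.6 and 22.2 CPM with BML-260. Runx1, a transcription factor induced by denervation, was at 14.1, 44.4 and 32.9 CPM with vehicle and at 4.1 to 5.83 CPM with BML-260. The ubiquitin ligases Fbxo32 and Trim63 were highest in vehicle replicate 3 (1480 and 887 CPM) but lower in vehicle replicate 2 (424 and 213 CPM) than in vehicle replicate 1 (549.6 and 277 CPM). In vehicle replicate 2, where Smox was at 40.8 CPM, the fast fiber sum on CPM was 117000, the highest of the vehicle group. The macrophage sum was 118 CPM there, close to that of vehicle replicate 1 (115 CPM). The neutrophil and fibroblast sums were 7.51 and 508 CPM in vehicle replicate 2, against 49.5 and 845 CPM in vehicle replicate 1. What part these lists had in the Smox values was not tested. In vehicle replicate 3, the low Smox and Amd1 and the high Odc1, Sat1 and Paox went with a low fast fiber sum on CPM. The sums of the slow fiber, macrophage, neutrophil, adipocyte, erythroid and Schwann markers were high there. What part these markers had in these values was not tested.

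**Figure D5:**
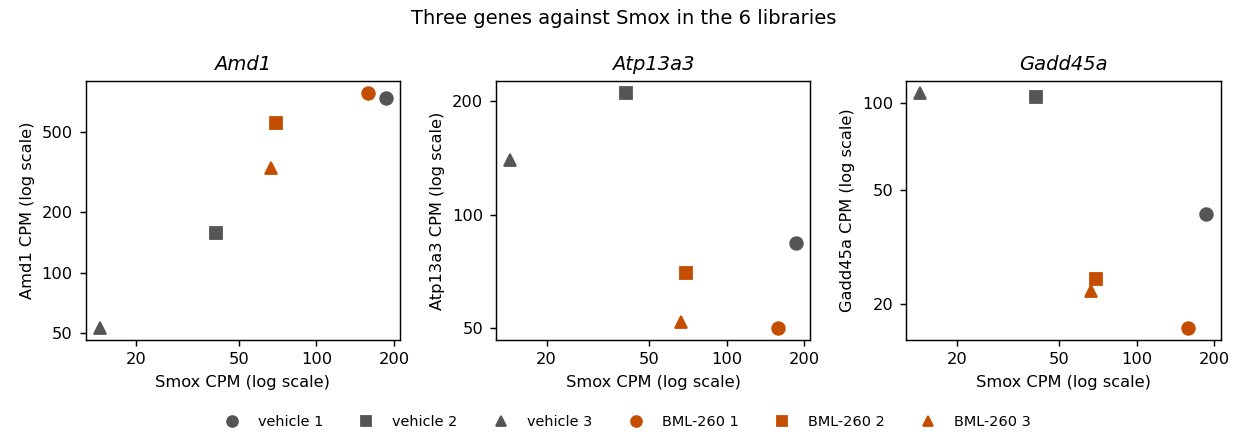
CPM of Amd1, Atp13a3 and Gadd45a against CPM of Smox in the 6 libraries, both axes on a log scale, grey for vehicle and orange for BML-260. Within each group Amd1 climbs with Smox, from 53.0 to 745 CPM with vehicle and from 332 to 788 CPM with BML-260. For Atp13a3 and Gadd45a, vehicle replicates 2 and 3 lie at the upper left and all 3 BML-260 libraries below every vehicle library.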

How the data were processed

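RNA was taken with TRIzol and made into libraries with the TruSeq Stranded Total RNA Gold kit, and 3 vehicle and 3 BML-260 libraries were sequenced. Per the submitters' processing notes, the tools were HISAT2 2.1.0, StringTie 2.1.3b, Trimmomatic 0.38 and Bowtie2 2.3.4.1, and the build was mm10. The deposited counts per gene are raw, and the authors also deposited TPM, scaled for transcript length and library total, for 16800 genes. The strand setting and the handling of multi-mapped reads are not given in the sources used here.

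Counts were tested in R 4.3.3 with edgeR 4.0.16 (filterByExpr, 16188 genes kept, TMM, quasi-likelihood F-test, Benjamini-Hochberg adjustment). The standard error is the log2 fold change over the square root of F. DESeq2 1.42.0 and limma 3.58.1 on log2(TPM + 1) and log2(TPM + 0.1) were among 15 alternatives. Log2 CPM used a prior count of 2, and the edgeR fit was also run on simulated counts. The study's methods give 3 mice a group, so p-values measure the spread between mice. Gene positions and promoters are from RefSeq, and stretches of 50 bases shared between gene models from GENCODE vM21.

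The members and lists were chosen with earlier results of these data known. All members were named, as were wider-list genes that met the call rule, the 2 with the largest and the 2 with the smallest fold change, those not tested, and the 5 named genes most like Smox. Oat, Atp13a2, Enoph1, Gadd45a, Runx1, Fbxo32 and Trim63 were added after their values were seen. The spreads, likenesses and ranks of Amd1 with a library left out were also added after seeing the data.

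The marker lists were fast fiber, slow fiber, macrophage, neutrophil, lymphocyte, fibroblast, adipocyte, endothelial, erythroid, Schwann, and denervation and atrophy. Those not described in the text had summed CPM in the vehicle and BML-260 libraries of 508 to 845 and 474 to 819 (fibroblast), 1.68 to 16.7 and 2.50 to 3.48 (adipocyte), 114 to 141 and 118 to 141 (endothelial), 730 to 2344 and 591 to 795 (erythroid), and 15.5 to 62.7 and 23.3 to 24.5 (Schwann). The neutrophil sum was 7.51 to 173 and 2.22 to 3.64.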

Additional observations from a re-analysis of the deposited data

How the results depend on the processing

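The direction of the log2 fold change of Odc1, Amd1, Sat1, Sms, Paox, Oaz2 and Atp13a3 was kept under all 15 alternatives, and that of Smox, Srm, Azin1 and Oaz1 was not. Genes that met the fold and p rule numbered 931, and 1416 without the filter on low counts, 503 with limma on log2(TPM + 1), 1057 with the replicate block and 503 to 2223 with 1 library left out. At an adjusted p under 0.05 edgeR called 0 genes, 1 each without the filter, with at least 10 counts in every library and with the robust fit, 0 to 9 with 1 library left out (9 without vehicle replicate 1, 6 without vehicle replicate 3), and DESeq2 95. Members that met the rule numbered 1, and 3 without the filter, 4 with DESeq2, 0 with limma on either TPM scale, 3 with the replicate block (Amd1, Odc1 and Sms, but not Paox), and 0 to 5 with 1 library left out (5 without vehicle replicate 1, 3 without vehicle replicate 2, 0 without any of the others). Wider-list genes that met it numbered 2, 3 with the replicate block (Atp13a3, Amd2 and Adi1, but not Slc7a1), and 1 with the robust fit and with limma on either TPM scale, and 1 to 5 with 1 library left out (5 without vehicle replicate 1). The median log2 fold change of the wider list, 0.03, was -0.11 and -0.12 with limma at the pseudocounts 1 and 0.1, where that of all genes was -0.10 and -0.14, and the members' median of 0.11 was -0.02 on both. Neighbours in the level order that kept their order in every library numbered 1, 2 with counts per kilobase of exon, and 1 to 3 with 1 library left out (3 without vehicle replicate 3). Of the 7 ratios, 0 separated the groups, and 0 to 3 with 1 library left out (3 without BML-260 replicate 3, 2 without vehicle replicate 1 or 2). Of the 5 genes most like Smox, 1 was kept on log2(TPM + 1) and 0 without vehicle replicate 3. The cause of these differences was not tested.

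The labels number the replicates in both groups. Deviations from the group means correlated at 0.16, 0.05 and 0.11 for replicates 1, 2 and 3. Each vehicle library correlated best with the BML-260 library of its own number. The labels do not say what the number stands for, so the main fit used no block and the block was an alternative. Whether mice of the same number shared a batch was not tested. With the replicate block the log2 fold change was 0.90 for Smox, 1.54 for Amd1 and -0.58 for Odc1.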
